A study of Homo sapiens with 60 samples.

Results

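AQP3, HCAR2, HCAR3, IL21R and SCN1A are 5 genes whose transcripts stood far from the vehicle level in HepG2 cells given 500 µg/mL of an Astragalus root extract, or that are the close paralog of such a gene. They were chosen by gene symbol from these same measurements, as 5 of the 60675 gene rows of the count table and 5 of the 16692 genes with enough counts to test; all 5 passed that filter. HepG2 is an established human hepatocellular carcinoma line. The cells were exposed for 24 h to a 70% ethanol extract of Astragali Radix, Paeoniae Radix, Cnidii Rhizoma, Angelicae Gigantis Radix, Rehmanniae Radix Preparata or Cinnamomi Cortex, or of the formulas Sagunja-tang and Samul-tang, each at 500, 100 and 20 µg/mL. Vehicle cells received DMSO, which the sample labels give as 0.1% and the series description as 2%. The extracts are called here Astragalus, Paeonia, Cnidium, Angelica, Rehmannia, Cinnamon, Sagunja and Samul. There were 60 libraries in 25 groups: 3 for the vehicle, 3 a dose for Astragalus, Cnidium, Rehmannia and Cinnamon, 2 a dose for Angelica, Paeonia and Sagunja, and 1 a dose for Samul, which therefore has values and no test. The question asked here is whether the other extracts, and lower Astragalus doses, also moved these genes. The series description adds that extracts toxic at 500 µg/mL were used at lower doses, while the labels give the same 3 doses for every extract. The labels do not say that replicates were separate cultures, so the p-values measure only the spread between these libraries, which may be technical.

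AQP3 encodes an aquaglyceroporin, a membrane channel that passes water and glycerol, best known from the basolateral membrane of skin and kidney collecting duct cells. HCAR2 and HCAR3 encode Gi-coupled receptors for hydroxycarboxylic acids: HCAR2 binds the ketone body 3-hydroxybutyrate and the drug niacin, HCAR3 binds 3-hydroxyoctanoate, and both restrain lipolysis in fat cells. Their neighbour HCAR1 is the lactate receptor of the same family. IL21R encodes the receptor chain for interleukin-21, a lymphocyte cytokine, and signals through JAK and STAT proteins together with the common gamma chain. SCN1A encodes the pore-forming subunit of a voltage-gated sodium channel of neurons.

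In GRCh38 with GENCODE 29 annotation, AQP3 (ENSG00000165272) lies at chr9:33441154-33447633 on the minus strand and SCN1A (ENSG00000144285) at chr2:165984641-166149214, also minus. IL21R (ENSG00000103522) lies at chr16:27402162-27452042 on the plus strand. HCAR2 (ENSG00000182782, chr12:122701293-122703343) and HCAR3 (ENSG00000255398, chr12:122714756-122716892) lie on the minus strand with 11412 bases between them. Of 1087 aligned coding bases 27 differed, which is 97.5% identity, and the longest run without a difference was 192 bases. A read of 100 bases taken from inside that run has no base that tells the 2 genes apart, and 15% of all 100-base windows of the HCAR2 transcript also occur in HCAR3. The stretch below, coding bases 205 to 324 of both genes, is shown because it holds 10 of the differences; the bases that differ are in capitals. It was read 5′ to 3′ from the GENCODE transcripts, at chr12:122702960-122703079 for HCAR2 and chr12:122716414-122716533 for HCAR3 (GRCh38, minus strand).
HCAR2: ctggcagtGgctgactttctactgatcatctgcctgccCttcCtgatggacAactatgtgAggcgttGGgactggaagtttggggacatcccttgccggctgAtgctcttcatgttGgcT
HCAR3: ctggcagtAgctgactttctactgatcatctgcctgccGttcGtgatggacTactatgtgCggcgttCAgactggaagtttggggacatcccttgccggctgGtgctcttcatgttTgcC

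The deposited counts carry the trace of shared reads. They are RSEM estimates, in which a read that matches several genes is divided between them, and HCAR2 and HCAR3 were fractional in 55 of 60 libraries, whereas their sum was whole (within 1e-06) in 56. AQP3 and HCAR1 were whole in all 60. IL21R was fractional in 21 libraries and SCN1A in 20, so some of their reads were divided too. HCAR2 took from 5.30% to 44.8% of the pair's count per library, with a median of 22.9%. The 2 genes are therefore reported separately and as their sum, and the sum is the firmer value.

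Upstream windows of 250 bases were given by RefSeq (GRCh38.p14) for 3 of the 5 genes, 4 windows in all. Those of AQP3 and of 1 SCN1A start site are shown because these 2 genes moved in opposite directions across the extracts. The SCN1A window shown is the one that held a motif. The AQP3 window is chr9:33447594-33447843 and the SCN1A window chr2:166128021-166128270, both read on the minus strand.
AQP3: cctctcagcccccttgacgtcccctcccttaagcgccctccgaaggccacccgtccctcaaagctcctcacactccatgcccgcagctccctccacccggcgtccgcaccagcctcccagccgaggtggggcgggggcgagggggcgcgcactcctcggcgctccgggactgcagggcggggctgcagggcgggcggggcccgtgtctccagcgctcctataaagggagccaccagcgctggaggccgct
SCN1A: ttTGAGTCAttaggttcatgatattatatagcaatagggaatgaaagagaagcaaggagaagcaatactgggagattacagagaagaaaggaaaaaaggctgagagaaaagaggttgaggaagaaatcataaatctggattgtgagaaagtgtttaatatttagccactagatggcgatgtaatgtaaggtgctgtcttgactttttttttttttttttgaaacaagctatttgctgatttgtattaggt
The AQP3 window is 73.6% G and C and the SCN1A window 33.6%. Capitals mark a match to the AP-1 motif TGANTCA, which starts 248 bases before the SCN1A start and which 6.57% of 35116 such windows hold. The other motifs searched on both strands were TGACGTCA (CRE, in 1.65% of windows), GCGTG (the AhR core, 32.2%), TGACNNNGC (the antioxidant response element core, 10.9%) and the direct repeat bound by PPAR (0.0171%). These other motifs were in none of the 4 windows, and AP-1 was in none of the other 3. Among those is the second SCN1A window (chr2:166149162-166149411), which spans the annotated 5′ end of the gene at 166149214. A match is a string of letters in this window and was not tested as a binding site.

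Library totals ran from 21485882 to 34643028 counts. Levels below are CPM, the count divided by the library's scaled total and expressed per 1e+06, with the scaling by TMM, a normalization that sets libraries to a common centre. The TMM factor was 0.784 to 0.851 in the 3 Astragalus 500 µg/mL libraries and 0.903 or more in all others. Mitochondrially encoded genes took 25.8% ± 1.45 (SD, n = 3) of counts at Astragalus 500 µg/mL, 20.9% ± 1.70 (SD, n = 2) at Paeonia 500 µg/mL and 14.2% ± 0.93 (SD, n = 3) in the vehicle. In Angelica they took 19.7% at 500 and 19.8% at 20 µg/mL. Their part in the results was not tested. The summed level of the 10 hepatocyte markers (ALB, AFP, APOA1 and others) was 56211 to 57849 CPM in vehicle libraries. It was lower at Astragalus 500 µg/mL, at 41192 to 53234 CPM. Over all 60 libraries the sum ran from 41192 to 67146 CPM, so it was high in every library. Single markers are not given here. In all tests below, 1 edgeR quasi-likelihood fit of all 60 libraries was used, p-values were Benjamini-Hochberg adjusted over the 16692 genes of each comparison, and the words rose and fell stand for an adjusted p below 0.05. All comparisons with the vehicle share its 3 libraries, including the one by which the genes were chosen. The Astragalus 20 µg/mL libraries were also a reference in that choice, so comparisons with them are not independent of it. Where all libraries of a group are said to lie above or below another group, the share of all genes that did so is not given here.

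At Astragalus 500 µg/mL all 5 genes differed from the vehicle, as the choice required, and 69.8% of all genes tested passed the threshold in that comparison. By absolute log2 change among 16692 genes, AQP3 ranked 35, HCAR2 55, SCN1A 61, HCAR3 67 and IL21R 249. AQP3, HCAR2, HCAR3 and IL21R were higher and SCN1A was lower. No test is given for these differences because they chose the genes.

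AQP3, the glycerol and water channel, was measured at 1.66, 1.88 and 2.25 CPM in the vehicle libraries and at 63.6, 58.0 and 57.3 CPM at Astragalus 500 µg/mL. The highest AQP3 level in any library outside Astragalus 500 µg/mL was 7.98 CPM, in a Paeonia 500 µg/mL library. The difference between Astragalus 500 µg/mL and vehicle was 4.94 ± 0.11 (SE) on the log2 scale, or 30.8-fold. Most of it lay between 100 and 500 µg/mL: Astragalus 100 µg/mL gave 3.21, 3.09 and 2.95 CPM and 20 µg/mL gave 2.04, 1.97 and 2.62 CPM. AQP3 rose from 20 to 100 µg/mL of Astragalus by 0.49 ± 0.13 on the log2 scale (edgeR adjusted p = 0.0039), and every library at 100 lay above every library at 20. This test is not independent of the choice of genes, in which the 20 µg/mL libraries were a reference.

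AQP3 was also the member moved by the most other extracts. It rose against the vehicle at 500 µg/mL in all 6 other replicated extracts. Paeonia gave 7.11 and 7.98 CPM, a rise of 1.97 ± 0.13 (edgeR adjusted p = 2.7e-16), and Sagunja 6.62 and 6.69 CPM, a rise of 1.78 ± 0.14 (6.9e-14). Cnidium gave 3.90, 4.31 and 3.48 CPM, a rise of 1.01 ± 0.13 (8.5e-08). Angelica, with 3.43 and 3.35 CPM, and Rehmannia, with 3.10, 3.48 and 2.96 CPM, were higher by 0.81 and 0.72. All libraries of these 5 extracts at 500 µg/mL lay above all vehicle libraries. Cinnamon gave 2.26, 2.24 and 3.23 CPM, overlapped the vehicle and rose by 0.40 ± 0.14 (adjusted p = 0.042), a call that was lost under 7 of the alternative settings. Samul, with 1 library, had 3.63 CPM.

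Within each extract, with no vehicle library in the comparison, AQP3 rose from 20 to 500 µg/mL in 5 of the 6. The rise was 1.58 ± 0.15 in Paeonia and 1.48 ± 0.14 in Sagunja. It was 0.93 ± 0.13 in Cnidium, 0.77 ± 0.17 in Angelica and 0.63 ± 0.14 in Rehmannia, with edgeR adjusted p from 2.6e-11 in Paeonia to 0.011 in Angelica. In Cinnamon the change was 0.34, with a 95% interval from 0.07 to 0.61 (adjusted p = 0.37). The Angelica and Rehmannia calls ended when only the groups compared were fitted (adjusted p = 0.213 and 0.28); they also ended without Angelica 20 µg/mL replicate 3 (0.307), Angelica 500 µg/mL replicate 2 (0.122) or Rehmannia 500 µg/mL replicate 2 (0.0859). At 20 µg/mL the group means of the 6 extracts ran only from 1.99 to 2.54 CPM, near the vehicle mean of 1.93 ± 0.30 (SD, n = 3).

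SCN1A, the sodium channel gene, was measured at 78.6, 72.8 and 82.0 CPM in the vehicle and at 3.25, 3.35 and 5.06 CPM at Astragalus 500 µg/mL. The lowest SCN1A level outside Astragalus was 33.3 CPM, in a Paeonia 500 µg/mL library. The difference was -4.29 ± 0.10 (SE) on the log2 scale, 19.6-fold lower. Unlike AQP3, SCN1A was already low at 100 µg/mL of Astragalus, at 28.8, 35.3 and 33.5 CPM, against 64.7, 71.5 and 71.3 CPM at 20 µg/mL. SCN1A fell by 1.09 ± 0.07 on the log2 scale from 20 to 100 µg/mL of Astragalus (edgeR adjusted p = 1.6e-15), and no library at 100 reached a level seen at 20. As for AQP3, the 20 µg/mL libraries were a reference in choosing the genes.

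Of the other extracts at 500 µg/mL, SCN1A fell against the vehicle in 4. Paeonia gave 36.3 and 33.3 CPM, a change of -1.16 ± 0.08 (edgeR adjusted p = 2.5e-15). Cnidium gave 41.0, 42.7 and 46.1 CPM, a change of -0.84 ± 0.07 (1.3e-12), and Sagunja 45.6 in both libraries, a change of -0.77 ± 0.08 (9.2e-10). Rehmannia gave 59.1, 62.0 and 61.7 CPM, a change of -0.35 ± 0.07 (0.00037). Angelica (66.1 and 69.1 CPM) and Cinnamon (65.0, 77.1 and 69.6 CPM) did not pass the threshold, with changes of -0.20 and -0.14 and 95% intervals from -0.36 to -0.05 and from -0.28 to -0.0023. The Angelica value was close to the threshold (adjusted p = 0.06) and passed it under 5 alternative settings. All libraries of Paeonia, Cnidium, Sagunja, Rehmannia and Angelica lay below all vehicle libraries, and Samul had 62.1 CPM. From 20 to 500 µg/mL the same 4 extracts had a fall, of 1.18, 0.72, 0.78 and 0.36 on the log2 scale for Paeonia, Cnidium, Sagunja and Rehmannia. The Rehmannia call ended when only its own groups were fitted (adjusted p = 0.147).

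**Figure D1:**
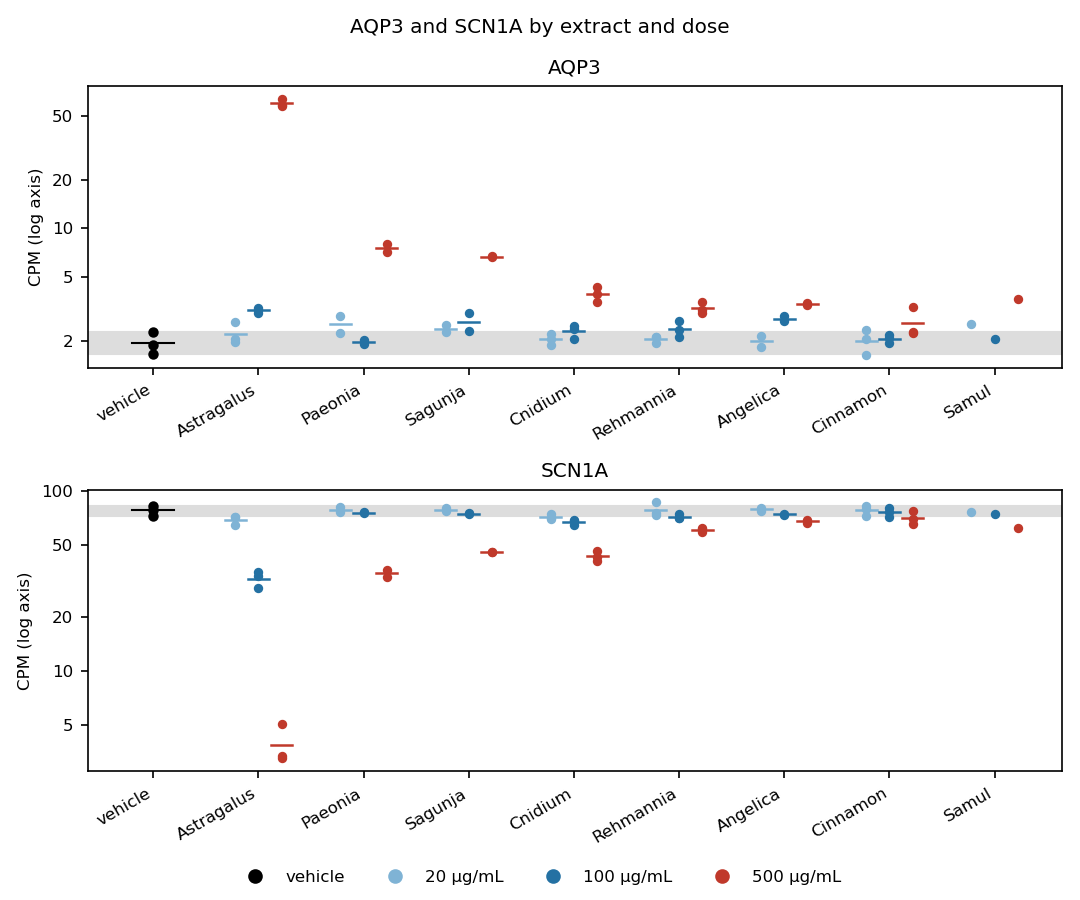
CPM (log axis) of AQP3, top, and SCN1A, bottom, in every library, by extract and dose; short lines are group means and the grey band is the range of the 3 vehicle libraries. AQP3 lies between 57.3 and 63.6 CPM and SCN1A between 3.25 and 5.06 CPM at Astragalus 500 µg/mL, and outside Astragalus the Paeonia 500 µg/mL libraries have the highest AQP3 and the lowest SCN1A.

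Groups with more AQP3 tended to have less SCN1A. Over the 22 replicated groups, the mean log2 CPM of AQP3 and SCN1A had a Pearson r of -0.95, and of -0.92 over the 19 groups without Astragalus. This is a description of group means that share libraries and vehicle, with no p. The 22 groups include the vehicle and the highest Astragalus dose, by which AQP3 was chosen as higher and SCN1A as lower. A negative r over them was therefore partly built in. Close patterns were also common: 12.7% of the genes compared had an r above 0.8 with AQP3 and 18.3% with SCN1A. The share with an equally negative r is not given here. No other pair of members was as close without Astragalus, and their r differed widely. It was 0.75 for HCAR2 and HCAR3, which share reads. HCAR3 had 0.56 with IL21R, -0.53 with SCN1A and 0.52 with AQP3. The values nearest 0 were 0.0045 for AQP3 and IL21R and 0.0068 for SCN1A and IL21R.

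**Figure D2:**
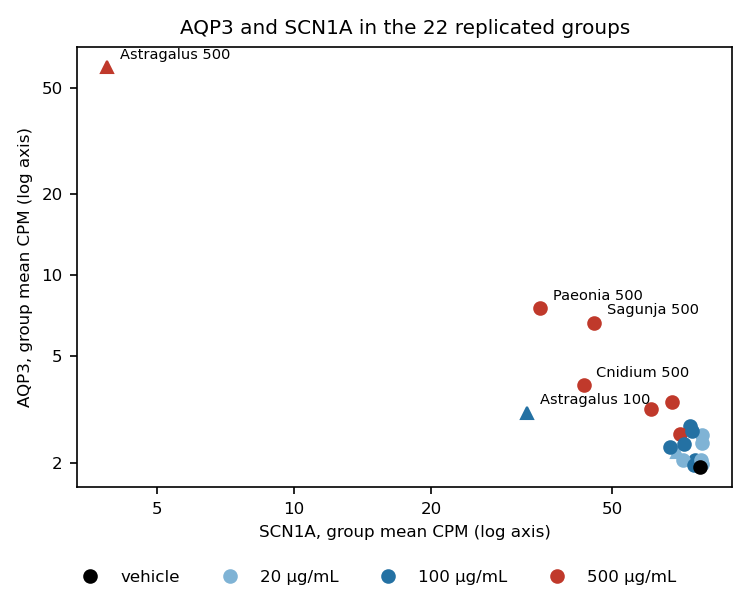
Group mean CPM of AQP3 against SCN1A (both log axes) in the 22 replicated groups; triangles are Astragalus and colours give the dose. Groups with less SCN1A have more AQP3, with Astragalus 500 µg/mL at 59.6 and 3.89 CPM far from the rest and Astragalus 100 µg/mL low in SCN1A at 32.5 CPM with 3.09 CPM of AQP3.

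HCAR2 and HCAR3, the hydroxycarboxylic acid receptors, were low in the vehicle. HCAR2 had 0.0354, 0.150 and 0.106 CPM there, from only 9.02 estimated counts over the 3 libraries, and HCAR3 had 0.460, 0.539 and 0.528 CPM. At Astragalus 500 µg/mL HCAR2 had 2.43, 2.24 and 2.21 CPM and HCAR3 8.57, 10.5 and 8.43 CPM. The differences were 4.46 ± 0.37 and 4.15 ± 0.21 (SE) on the log2 scale, and 4.22 ± 0.17 for the sum of both, which went from 0.495, 0.688 and 0.634 CPM to 11.0, 12.8 and 10.6 CPM. The highest sum outside Astragalus 500 µg/mL was 4.25 CPM, in a Paeonia 500 µg/mL library.

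The pair was higher in extract-treated than in vehicle cells at every dose. The sum of HCAR2 and HCAR3 lay above all 3 vehicle libraries in every library of all 21 replicated extract groups. All 21 were set against the same 3 libraries, so these are not separate observations. The share of all genes that lay apart from the vehicle in this way is not given here. Even at 20 µg/mL, the mean of the 6 other extracts exceeded the vehicle for HCAR2 by 1.60 ± 0.40 (edgeR adjusted p = 0.0019) and for HCAR3 by 0.82 ± 0.21 (0.0027), in a comparison in which 32.9% of all genes passed. The sum was higher by 1.00 ± 0.17 (adjusted p = 1.8e-05). AQP3, IL21R and SCN1A did not pass there, with differences of 0.16, -0.04 and -0.01. Every library title, of vehicle and extracts alike, names the same batch, D. The vehicle libraries nevertheless carry a sample code prefix of their own, separate from those of the extracts. A difference that all extracts share therefore cannot be told apart from one between these sets of libraries.

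Against the vehicle at 500 µg/mL, the HCAR sum rose in 5 of the 6 other extracts. Paeonia gave 3.86 and 4.25 CPM, a rise of 2.73 ± 0.20 (edgeR adjusted p = 1.7e-15). Cinnamon, Rehmannia, Angelica and Sagunja rose by 1.21, 1.13, 1.06 and 0.91, with group means between 1.15 and 1.41 CPM. Cnidium, at 0.827, 0.808 and 0.964 CPM, was higher by 0.51 and did not pass (0.113). Taken singly, HCAR2 rose in Paeonia, Angelica and Rehmannia, and HCAR3 in Paeonia, Rehmannia, Cinnamon and Sagunja. With the other extracts at 20 µg/mL in place of the vehicle as reference, only Paeonia kept its HCAR2 and HCAR3 calls. The HCAR2 call in Angelica also ended without Angelica 500 µg/mL replicate 2 (adjusted p = 0.0659), and the HCAR3 call ended in Rehmannia without its replicate 1 (0.139) or vehicle replicate 1 (0.0691) or 2 (0.0509), and in Sagunja without its replicate 2 (0.223) or vehicle replicate 1 (0.0506).

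Within an extract, dose moved the pair in 2 of the 6, and in opposite directions. In Paeonia the sum rose from 1.36 and 0.937 CPM at 20 µg/mL to 3.86 and 4.25 CPM at 500 µg/mL, a rise of 1.83 ± 0.21 (edgeR adjusted p = 3.3e-09). HCAR2 rose by 1.70 ± 0.43 and HCAR3 by 1.87 ± 0.27; the HCAR2 call ended without Paeonia 20 µg/mL replicate 3 (adjusted p = 0.0637). In Cnidium the sum was 1.5, 1.18 and 1.59 CPM at 20 µg/mL, above all 3 libraries at 500 µg/mL, and it fell by 0.71 ± 0.20 (adjusted p = 0.0071). HCAR2 alone fell by 1.68 ± 0.42 in Cnidium, while HCAR3 changed by -0.36, with a 95% interval from -0.85 to 0.13. In Angelica, Rehmannia, Cinnamon and Sagunja neither gene nor the sum passed the threshold. In Astragalus the sum rose from 1.04, 1.35 and 0.981 CPM at 20 µg/mL to 1.37, 1.74 and 1.72 CPM at 100 µg/mL, a rise of 0.51 ± 0.18 (0.028), although neither gene passed singly.

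HCAR1, the lactate receptor beside the pair, does not share this ambiguity. It stood at 2.90, 2.57 and 2.71 CPM in the vehicle, 6.97, 7.97 and 6.01 CPM at Astragalus 500 µg/mL and 7.30 and 7.64 CPM at Paeonia 500 µg/mL. The Astragalus and Paeonia libraries of HCAR1 overlapped, which those of HCAR2, HCAR3 and their sum did not. HCAR1 rose by 1.46 ± 0.15 in Paeonia against vehicle (edgeR adjusted p = 2.5e-11) and by 1.18 ± 0.17 against Paeonia 20 µg/mL (2.4e-07). Of the 5 remaining extracts at 500 µg/mL only Rehmannia passed against vehicle, with 0.45 ± 0.14 (0.023).

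IL21R, the interleukin-21 receptor gene, rose in some extracts and fell in others, as HCAR2 did from 20 to 500 µg/mL. It was measured at 1.59, 1.11 and 1.3 CPM in the vehicle and at 10.3, 11.6 and 9.38 CPM at Astragalus 500 µg/mL, a difference of 2.97 ± 0.20 (SE) on the log2 scale. At Astragalus 100 µg/mL it stood at 2.02, 2.89 and 3.74 CPM, above 1.54, 1.41 and 1.64 CPM at 20 µg/mL. That rise was 0.91 ± 0.22 (edgeR adjusted p = 0.001), against 20 µg/mL libraries that were a reference in choosing the genes.

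Paeonia was the other extract in which IL21R rose. It gave 3.01 and 4.56 CPM at 500 µg/mL, against 0.937 and 1.61 CPM at 20 µg/mL, a rise of 1.58 ± 0.28 (edgeR adjusted p = 1.8e-05). In Cnidium IL21R fell, from 1.32, 1.18 and 1.34 CPM at 20 µg/mL to 0.597, 0.236 and 0.156 CPM at 500 µg/mL, by 2.07 ± 0.33 (6.4e-06). Against the vehicle IL21R fell in Cnidium by 2.12 ± 0.33, in Angelica by 1.34 ± 0.33 and in Cinnamon by 1.02 ± 0.27. Angelica gave 0.312 and 0.703 CPM and Cinnamon 0.485, 0.795 and 0.667 CPM, and all libraries of these 3 extracts at 500 µg/mL lay below all vehicle libraries. The Angelica call ended without its replicate 2 (adjusted p = 0.11), and the Cinnamon call without its replicate 1 (0.0593) or vehicle replicate 1 (0.0515). From 20 to 500 µg/mL the changes were -1.05 in Angelica, with a 95% interval from -1.80 to -0.31 (adjusted p = 0.2), and -1.0 in Cinnamon, from -1.54 to -0.47 (0.066). Rehmannia (-0.34, from -0.86 to 0.18) and Sagunja (-0.61, from -1.24 to 0.01) did not pass either. Samul had 0.443 CPM at 500 µg/mL in its 1 library, against 1.46 at 100 and 1.16 at 20.

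**Figure D3:**
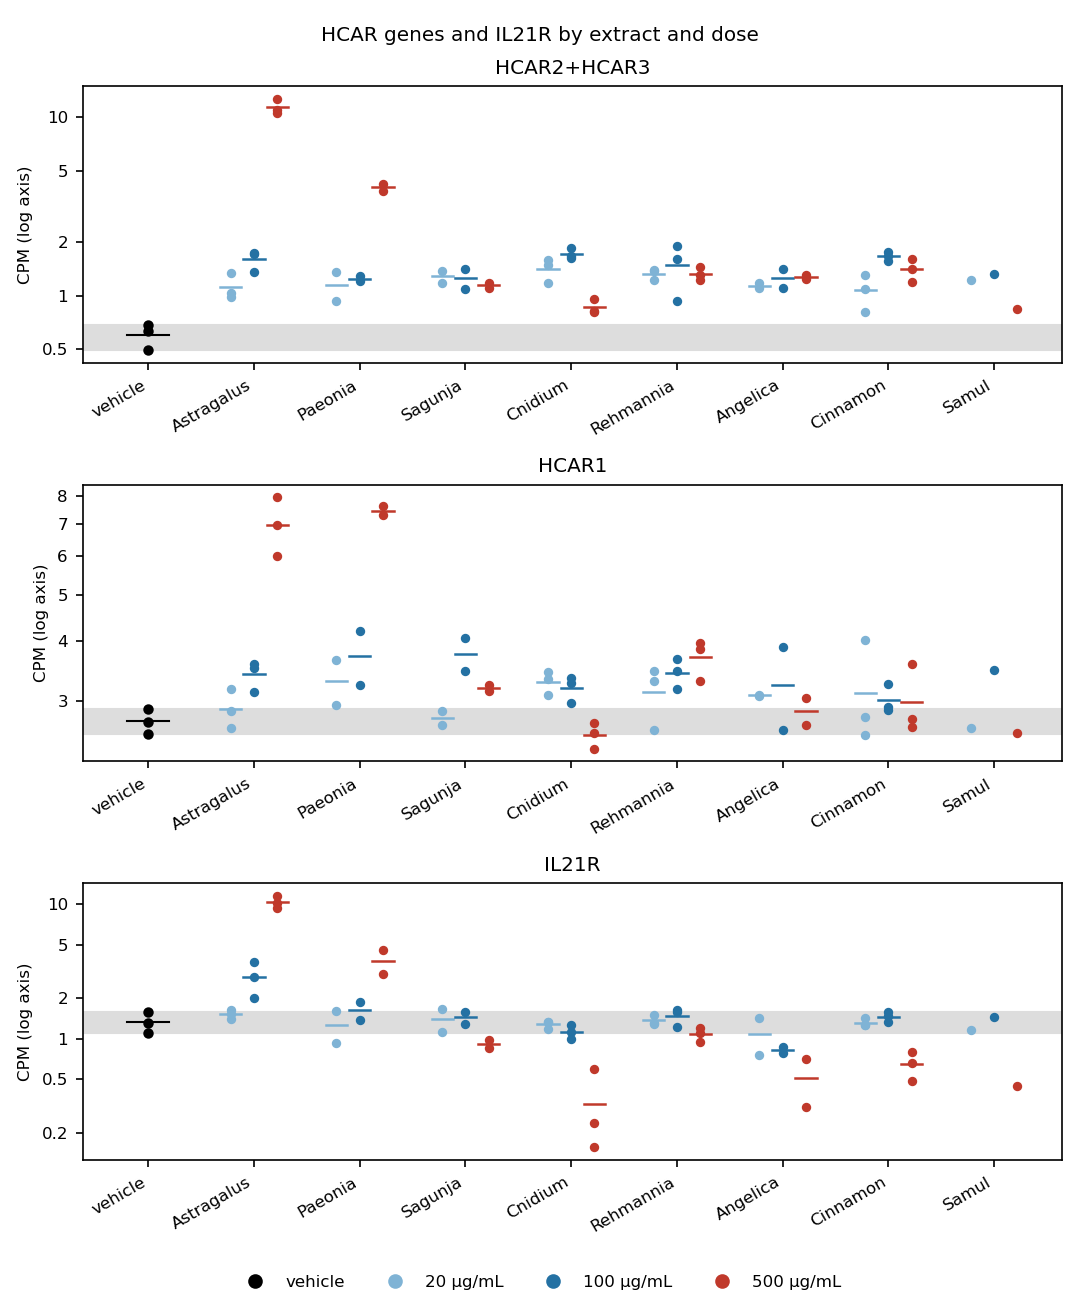
CPM (log axis) of the sum of HCAR2 and HCAR3, of HCAR1 and of IL21R in every library, by extract and dose; short lines are group means and the grey band is the range of the 3 vehicle libraries. The HCAR sum lies above the band in every replicated extract group, HCAR1 reaches about the same level in Astragalus and Paeonia at 500 µg/mL, and IL21R lies above the band in those 2 and below it in Cnidium, Angelica, Cinnamon and Sagunja at 500 µg/mL.

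Counted over the members at 500 µg/mL against the vehicle, Paeonia moved all 5 in the direction seen in Astragalus, in a comparison in which 46.4% of all genes passed. Rehmannia moved 4 (background 20.0%): AQP3, HCAR2 and HCAR3 rose and SCN1A fell. Angelica moved 3 (22.3%), Cnidium 3 (30.9%), Cinnamon 3 (14.7%) and Sagunja 3 (25.6%). IL21R was 1 of the 3 in Angelica, Cnidium and Cinnamon, in the direction opposite to Astragalus. In Sagunja the 3 were AQP3, HCAR3 and SCN1A. HCAR2 and HCAR3 share reads, and these tallies count each as a member. Outside Paeonia, every HCAR2 and HCAR3 call in them was lost once low-dose extract groups stood in for the vehicle. In Rehmannia the sum of the pair changed by 0.0060 from 20 to 500 µg/mL (edgeR adjusted p = 0.999).

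From 20 to 500 µg/mL within an extract, Paeonia again moved all 5 (background 30.6%) and Cnidium 4 (18.4%), of which HCAR2 and IL21R went opposite to Astragalus. Sagunja moved AQP3 and SCN1A (10.4%), Rehmannia the same 2 (1.41%) and Angelica AQP3 alone (1.05%). Cinnamon moved none by edgeR (0.809%), while 2, AQP3 and IL21R, had an unadjusted p below 0.05 (0.0197 and 0.00064), and IL21R passed with no filter on low counts (adjusted p = 0.0099). By DESeq2 AQP3 and SCN1A did not pass there either, and HCAR2, HCAR3 and IL21R were given no adjusted p. Cinnamon carries the same sample code prefix as Astragalus.

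**Figure D4:**
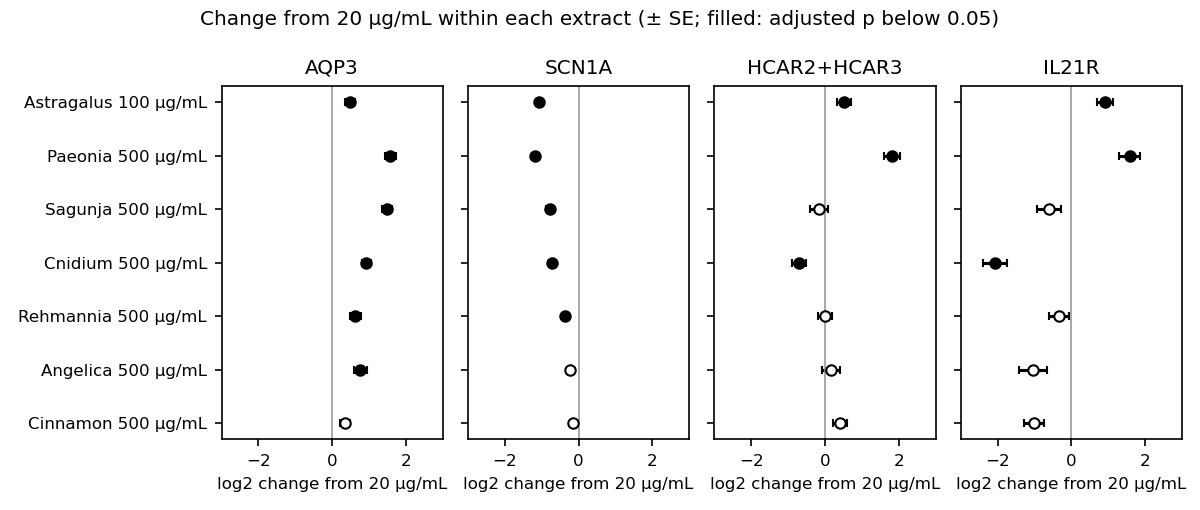
Log2 change from 20 µg/mL (± SE) of AQP3, SCN1A, the sum of HCAR2 and HCAR3, and IL21R, for Astragalus at 100 µg/mL and 6 other extracts at 500 µg/mL; filled points passed the threshold. The AQP3 points lie above 0 and the SCN1A points below 0 in all 7 rows, whereas the HCAR sum and IL21R are above 0 in Paeonia and below 0 in Cnidium.

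The Astragalus 100 µg/mL libraries were not used in choosing the genes. The vehicle and the Astragalus 20 µg/mL libraries were used, as references for 500 µg/mL. Comparisons with either are therefore not independent of the choice. At 100 µg/mL all 5 genes passed against the vehicle, in the direction seen at 500 µg/mL, in a comparison in which 39.5% of genes passed. At 20 µg/mL only HCAR3 of the 5 passed singly, by 0.81 ± 0.26 (edgeR adjusted p = 0.034, background 13.2%). That call was lost under 6 alternative settings, 5 of which left out 1 library. The sum of HCAR2 and HCAR3 passed there, by 0.88 ± 0.21 (edgeR adjusted p = 0.0044). The mean of the 6 other extracts at 20 µg/mL was also above the vehicle in that sum, by 1.00 ± 0.17. From 20 to 100 µg/mL AQP3, IL21R and SCN1A passed (29.1%). At a matched 100 µg/mL, Astragalus differed from the mean of the 6 other extracts in AQP3 by 0.41 ± 0.10, in IL21R by 1.14 ± 0.16 and in SCN1A by -1.17 ± 0.06 (background 47.0%), and in HCAR2 and HCAR3 by -0.04 and 0.24, which did not pass. The change from 20 to 100 µg/mL itself differed between Astragalus and the mean of the others in IL21R, by 0.90 ± 0.25 (adjusted p = 0.0052), and in SCN1A, by -1.01 ± 0.08 (2.8e-13), where 24.5% of genes passed. For AQP3 that difference was 0.39 ± 0.15 (0.052), and it passed under 9 of 41 alternative settings, each of which left out 1 library (adjusted p down to 0.016). The IL21R call ended without Astragalus 100 µg/mL replicate 3 (0.0594).

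The families and pathways of the members are described next, at Astragalus 500 µg/mL against vehicle, where the median log2 change of all genes was -0.05 and 69.8% of all genes passed, 5632 of them higher and 6024 lower. The counts below are to be read against that share. Of 13 other aquaporin genes 6 were measured well enough to test: 2 rose, 3 fell and the median change was -0.38 (5 of 6 passed, against 69.8% of all genes). AQP8, a water and ammonia channel, rose from 0.295 ± 0.11 to 3.07 ± 0.45 CPM (SD, n = 3), by 3.38 ± 0.37 (edgeR adjusted p = 7.7e-11). AQP7, another glycerol channel, which lies on the same chromosome as AQP3, fell from 2.15 to 1.31 CPM and did not pass in Paeonia (1.97 CPM). AQP9, the glycerol channel of hepatocytes, was at 0.317 CPM in the vehicle and fell to 0.0932. AQP11 was at 13.8 CPM in the vehicle and 13.2 at Astragalus 500 µg/mL and did not pass. Of 10 tested genes of glycerol use and lipolysis, 5 rose and 3 fell, with a median of 0.30 (8 of 10 passed, against 69.8%). AGPAT2, which acylates lysophosphatidic acid, rose by 2.63 ± 0.16 and PLIN2, which coats lipid droplets, by 2.37 ± 0.08. GPAM, the mitochondrial glycerol-3-phosphate acyltransferase, fell by 2.14 ± 0.06.

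Of 11 tested genes of hydroxycarboxylic acid receptors and Gi signalling, the pair aside, 8 rose and 3 fell, with a median of 0.40 (11 of 11 passed, against 69.8% of all genes). HCAR1 rose by 1.35 ± 0.13, and ARRB1 and ARRB2, the beta-arrestins that bind activated receptors, rose by 0.80 and 0.77. Of 11 tested genes of ketone body and lactate enzymes and transporters, 5 rose and 5 fell, with a median of -0.17 (10 of 11 passed, against 69.8%). LDHA, which makes lactate from pyruvate, rose by 1.28 ± 0.05. SLC16A3, a lactate exporter, rose by 1.24, and BSG, the chaperone of such exporters, by 0.99.

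Of 12 tested genes of the gamma chain receptors and JAK-STAT signalling, 6 rose and 1 fell, with a median of 0.18 (7 of 12 passed, fewer than the 69.8% of all genes). IL4R rose from 29.1 ± 1.60 to 99.9 ± 3.58 CPM, by 1.78 ± 0.06 (edgeR adjusted p = 5.2e-29). IL15RA rose by 1.76 and SOCS1, an inhibitor of JAK signalling, by 1.18. IL2RG, the common gamma chain with which IL21R works, had 0.0986 CPM in the vehicle and 0.258 at Astragalus 500 µg/mL and did not pass, while at Paeonia 500 µg/mL it rose to 0.516 CPM. IL21, the ligand, had 0 counts in all 60 libraries. The antisense transcript IL21R-AS1 had at most 2.9 counts in a library and was not tested.

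Of 5 tested genes of voltage-gated sodium channels, SCN1A aside, 2 rose and 1 fell, with a median of 0.00 (3 of 5 passed, against 69.8% of all genes). SCN8A, another pore-forming subunit, fell from 6.37 ± 0.82 to 2.53 ± 0.43 CPM, by 1.31 ± 0.11. SCN9A, which lies on the same chromosome as SCN1A, was at 36.3 ± 1.27 CPM in the vehicle and 33.1 ± 5.4 at Astragalus 500 µg/mL, which did not pass. In Paeonia, where SCN1A fell, SCN9A rose to 69.6 ± 0.23 CPM, by 0.94 ± 0.09 (edgeR adjusted p = 1.1e-11). SCN1A-AS1, an antisense transcript of the locus, fell from 0.353 to 0.0351 CPM. The strand setting of the counting is not given in the sources used here, so reads of SCN1A and SCN1A-AS1 may not be fully separated, although the antisense count never exceeded 21.0 in a library.

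Genes with the most similar pattern were sought by Pearson r of mean log2 CPM over the 22 replicated groups, as a description with no p. Groups share libraries of one cell line and the vehicle, and many genes follow the same few extremes. PLOD3, a lysyl hydroxylase, was closest to AQP3 (0.98, and 0.94 over the 19 groups without Astragalus). SFN, the 14-3-3 sigma protein (0.98 and 0.93), and TNFRSF12A, the TWEAK receptor (0.97 and 0.89), followed. Of tested genes with a symbol and a mean of at least 1 CPM in some group, 12.7% had an r above 0.8 with AQP3. The shares that follow are of the same genes. For SCN1A the closest were the non-coding DLX6-AS1 (0.99), the collagen gene COL4A5 (0.99) and the peptidase gene NAALAD2 (0.98). Without Astragalus their r was 0.92, 0.93 and 0.90. With SCN1A 18.3% of genes had an r above 0.8. IL21R was closest to MSMO1, an enzyme of cholesterol synthesis, to TP53INP1 and to the cytokine gene IL17B (each 0.96, 5.61% of genes above 0.8). These 3 had 0.93, 0.92 and 0.94 without Astragalus. HCAR3 was closest to PPP1R15A, a phosphatase subunit of the stress response (0.98), MAFF (0.97) and PTTG1IP (0.96), with 12.0% of genes above 0.8. Without Astragalus these values became 0.91, 0.93 and 0.88. For HCAR2, whose low counts are partly divided with HCAR3, the closest were SLC6A8, BNIP3 and NDRG1 (0.94, 0.94 and 0.93, with 2.52% of genes above 0.8). Their r without Astragalus was 0.89, 0.89 and 0.86.

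Of cell types in which the members are usually described, markers of lymphocytes, neurons, keratinocytes and collecting duct were scarce in these libraries. Those of myeloid cells and adipocytes were less so. The counts of tested markers are at Astragalus 500 µg/mL against vehicle, where 69.8% of all genes passed. The summed level of 8 lymphocyte markers was 0.748 to 1.16 CPM in the vehicle and 3.26 to 4.31 CPM at Astragalus 500 µg/mL; 5 of the 8 stayed under 10 counts in every library, 1 at 0, and all 3 tested rose, with a median of 2.74 on the log2 scale. The 8 neuron markers summed to 0.352 to 0.479 CPM and 0.885 to 1.12 CPM, and 2 of 3 tested rose. The 8 keratinocyte and collecting duct markers summed to at most 0.151 CPM in any library, and none was tested. The 8 myeloid and adipocyte markers summed to 6.90 to 8.24 CPM in the vehicle and 1.72 to 2.15 CPM at Astragalus 500 µg/mL. That vehicle sum was above the vehicle means of AQP3 (1.93 CPM), IL21R (1.33) and the HCAR sum (0.606). Of these 8 markers, 6 stayed under 10 counts in every library, 2 of them at 0. The part of these marker levels in the values of the members was not tested. In bulk RNA, a change in how many cells carry a transcript and a change in transcript per cell cannot be told apart.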

How the data were processed

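Total RNA of HepG2 cells was sequenced after directional mRNA library preparation, as 100 bp paired-end reads, per the labels' protocols. Per the submitters' processing notes reads were checked with FastQC (0.11.9) and trimmed with Trim Galore (0.6.5), and the authors' other tools were STAR (2.7.3a) and, for counting, RSEM (1.3.3), on GRCh38; the annotation release and strand setting are not given in the sources used here. The deposited values are RSEM expected counts, of which 8.21% were not whole (beyond 1e-09), so estimated counts were rounded. The table held 210 columns of other samples, which were not used. Symbols were matched by Ensembl identifier in GENCODE 29 for 57055 of 60675 rows, with 99.96% of counts.

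Genes were filtered by edgeR's filterByExpr over the 25 groups, scaled by TMM, and fitted in 1 quasi-likelihood model with edgeR 4.0.16 (R 4.3.3; 35 residual degrees of freedom, common biological coefficient of variation 0.0603). Log2 CPM used a prior count of 2, and 95% intervals are the estimate and its SE under a normal approximation. HCAR2 and HCAR3 were also summed and tested in place of both. DESeq2 1.42.0, other scalings and filters, a replicate block and leaving out single libraries were the alternatives. None of the 48 pairs of replicates within a group held identical values, and their chi-square per degree of freedom was 2.81 to 63.2. The test script was checked on simulated counts.

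The members and the gene lists were chosen with earlier results of these data known. Besides the members, the text names from each list up to 3 genes past the threshold with the largest change at Astragalus 500 µg/mL and no less than 1 CPM on average in the higher group, a set of paralogs, partners and antisense transcripts whatever their level, and for each member the 3 genes of most similar pattern. Some genes that this rule would name are not reported here.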

Additional observations from a re-analysis of the deposited data

Results flagged for a closer look

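IL21R and SCN1A differed between extracts by a test of the difference itself: from 20 to 100 µg/mL, the log2 change in Astragalus minus the mean change in the 6 other replicated extracts was 0.897 for IL21R and -1.01 for SCN1A. The Astragalus 20 µg/mL libraries were also a reference in choosing the genes, so that test is not independent of the choice.

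In other pairs of extracts every library of one moved up from 20 to 500 µg/mL and every library of the other moved down; these differences were not tested. HCAR2 rose in Paeonia and fell in Cnidium, a difference of 3.38 on the log2 scale. Its counts were low and partly divided with HCAR3. The sum of the pair, the firmer value, changed by 1.83 in Paeonia and by -0.71 in Cnidium. IL21R rose in Paeonia and was lower in each of 5 others, with differences of 3.65 to Cnidium, 2.64 to Angelica, 2.59 to Cinnamon, 2.20 to Sagunja and 1.93 to Rehmannia.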

How the results depend on the processing

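Each of 116 gene-level values was recomputed under the alternatives, all of them planned, giving 1561 values. Of these 1475 kept direction and side of the threshold, 35 lost a call, 23 gained one, 9 (all of Astragalus 500 µg/mL, without a test) moved by more than the spread between replicates, and 19, none of them called, changed sign around 0. DESeq2 gave no adjusted p for 15 of the values, among them calls for HCAR2 in Angelica and Rehmannia at 500 µg/mL against vehicle and in Cnidium from 20 to 500 µg/mL, for AQP3 in Angelica from 20 to 500 µg/mL and for HCAR3 in Astragalus 20 µg/mL. HCAR2 fell below the count filter in 10 fits of the compared groups alone. The cause of the changes was not tested.

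With the 20 µg/mL groups of other extracts replacing the vehicle, HCAR3 in Angelica became -0.10, HCAR2 in Cnidium -0.80, HCAR3 in Cnidium -0.32, HCAR2 in Cinnamon -0.36 and HCAR2 in Sagunja -0.76 on the log2 scale. With the pair summed, HCAR3 in Rehmannia from 20 to 500 µg/mL became 0.0060 and HCAR2 in Astragalus 100 µg/mL against the mean of the others 0.17. Without 1 library at a time, the changes from 20 to 500 µg/mL ran from -0.34 to 0.85 for HCAR2 and from -0.048 to 0.41 for HCAR3 in Angelica, and from -0.22 to 0.10 for HCAR3 in Sagunja. Likewise HCAR2 in Astragalus against the others at 100 µg/mL ran from -0.43 to 0.19, and at 20 µg/mL against vehicle IL21R ran from -0.17 to 0.10 and SCN1A from -0.055 to 0.028.

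The number of genes called against the vehicle at 500 µg/mL went from 3719 to 1047 in Angelica and from 3346 to 719 in Rehmannia with the extracts at 20 µg/mL as reference. From 20 to 500 µg/mL Angelica had 176 calls, against 280 by DESeq2, 388 with no count filter and 46 with only its own groups; Rehmannia had 235, against 432 with no filter and 17; Cinnamon had 135, against 210 with no filter and 30. Without 1 library at a time, the calls against vehicle at 500 µg/mL ran from 1934 to 3114 in Angelica, 2047 to 2830 in Rehmannia, 1554 to 1956 in Cinnamon (2448 in full) and 2298 to 3848 in Sagunja (4276). From 20 to 500 µg/mL they ran from 46 to 200 in Angelica, 122 to 281 in Rehmannia, 50 to 119 in Cinnamon and 881 to 1018 in Sagunja (1741). At 20 µg/mL against vehicle they ran from 1176 to 1734 in Astragalus (2198) and 3569 to 5854 for the mean of the other extracts (5485). Other counts stayed within 1.5 times under every alternative.

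The replicate numbers did not pair the samples: in no comparison did every pair of same-numbered libraries correlate above 0.1. With the replicate number as a block, Angelica 500 against 20 µg/mL had 182 calls, no count moved by over 1.5 times, and of the calls only that of SCN1A in Angelica against vehicle changed (adjusted p = 0.0466). Size factors of DESeq2 in place of TMM moved the median of all genes by at most 0.014. Depth limits HCAR2, which had 9.02 estimated counts over the vehicle libraries.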
